A study of Rattus norvegicus with 6 samples.

Results

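The 8 genes described here belong to skeletal and cardiac muscle differentiation and were measured by RNA sequencing of H9c2 cells, a line of heart-derived rat myoblasts that one label spells Hc92. The genes were taken by Ensembl identifier, as a fixed list of 8 among the 26404 gene rows of each count file. The list was drawn up with earlier results of these data known, so shares set against all genes below are a description. They are Myog (ENSRNOG00000030743), Des (ENSRNOG00000019810), Acta1 (ENSRNOG00000017786), Actc1 (ENSRNOG00000008536), Ckm (ENSRNOG00000016837), Tnnt2 (ENSRNOG00000033734), Nppa (ENSRNOG00000008176) and Nppb (ENSRNOG00000008141). The names came with the list, since neither the count files nor the gene table used here pairs an identifier with a symbol. All 8 identifiers were found. The 6 genes from Myog to Tnnt2 had enough reads to be tested, while Nppa and Nppb did not.

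The libraries formed 3 groups of 2, labelled BMPR2 tail domain mutant, BMPR2 kinase domain mutant and empty vector, the last being the control for both mutants. BMPR2 is a type II receptor for bone morphogenetic proteins, and the study's design text speaks of cells that lack the tail or the kinase domain. The sources used here do not give how the constructs were delivered, the culture conditions or whether a group's libraries were grown separately, so p-values measure only a spread that may be technical. The identifier of Bmpr2 was not matched, and its level was therefore not used as a check of the labels. Total counts in genes ran from 19116082 to 24936136 per library.

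In muscle cells, myogenin (the product of Myog) is one of the myogenic regulatory factors, helix-loop-helix proteins that bind short DNA elements called E-boxes and switch myoblasts into differentiation. Downstream come the parts of the contractile machine: desmin filaments (Des), the skeletal and cardiac alpha-actins (Acta1, Actc1), cardiac troponin T (Tnnt2) and the muscle creatine kinase (Ckm) that buffers ATP. Nppa and Nppb encode the natriuretic peptides ANP and BNP, hormones of the heart whose transcripts are classical signs of cardiac muscle identity and load. H9c2 cells are widely used because they keep features of both skeletal and cardiac muscle.

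The upstream sequences of 4 of the genes are shown because the results turn on these genes, and because E-boxes upstream of muscle genes are the kind of element that myogenin binds. Each run holds the 250 bases before the RefSeq start of the gene in GRCr8, 5′ to 3′ on the gene's own strand. Capitals mark matches to the E-box CANNTG, which reads the same on both strands, to the M-CAT element CATTCC or its complement GGAATG, and to the CArG box on either strand. The Myog stretch lies at chr13:48297226-48297475 on the plus strand, that of Ckm at chr1:88189211-88189460 on the plus strand, that of Acta1 at chr19:68784195-68784444 on the minus strand and that of Actc1 at chr3:121271828-121272077 on the minus strand.
Myog: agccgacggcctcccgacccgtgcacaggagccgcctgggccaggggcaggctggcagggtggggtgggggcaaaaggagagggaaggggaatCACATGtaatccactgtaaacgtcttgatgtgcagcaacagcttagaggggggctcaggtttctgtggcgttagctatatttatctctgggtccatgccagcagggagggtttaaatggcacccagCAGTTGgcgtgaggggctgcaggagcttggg
Ckm: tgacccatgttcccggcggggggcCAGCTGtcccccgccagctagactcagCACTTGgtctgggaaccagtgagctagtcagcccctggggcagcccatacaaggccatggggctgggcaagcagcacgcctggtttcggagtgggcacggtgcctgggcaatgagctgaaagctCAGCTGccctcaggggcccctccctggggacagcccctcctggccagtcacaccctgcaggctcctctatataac
Acta1: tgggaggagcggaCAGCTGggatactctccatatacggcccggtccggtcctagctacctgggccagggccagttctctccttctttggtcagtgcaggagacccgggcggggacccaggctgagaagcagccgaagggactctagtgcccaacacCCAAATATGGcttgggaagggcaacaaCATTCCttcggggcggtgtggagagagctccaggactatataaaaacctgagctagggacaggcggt
Actc1: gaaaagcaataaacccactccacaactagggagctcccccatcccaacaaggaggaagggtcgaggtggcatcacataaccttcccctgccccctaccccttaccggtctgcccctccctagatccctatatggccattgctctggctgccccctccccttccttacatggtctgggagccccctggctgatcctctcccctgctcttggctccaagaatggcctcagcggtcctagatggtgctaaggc

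The Ckm stretch held 3 E-boxes and the Myog stretch held 2, while the Acta1 stretch held 1 E-box, 1 M-CAT element and 1 CArG box. The Actc1 stretch held 0 matches to any of these motifs. Of the other genes, Des had 1 E-box and Nppa had 3, Nppb had 1 M-CAT element, and the first of the 2 RefSeq starts of Tnnt2 had 4 E-boxes and 1 M-CAT element. The second start of Tnnt2 had 1 E-box. E-boxes are common, with at least 1 in 65.5% of the 33469 upstream stretches of the same length, against 12.1% for M-CAT elements and 1.5% for CArG boxes. These matches are descriptions of letters in a window and were not tested for binding. The counts were made on another build, Rnor_5.0.

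In Ckm, Actc1, Acta1 and Des the kinase domain mutant had the highest mean, and both its libraries lay above both empty vector libraries. Over all genes tested, the kinase mutant lay higher than empty vector without overlap in 24.2% and lower in 26.4%. For Des the highest single library was tail mutant library 2, and the mutants overlapped. For Acta1 the empty vector libraries lay far apart, with library 1 at the level of the tail mutant. Levels are CPM, read counts relative to library size after TMM scaling, and can be compared between libraries but not between genes, since they are not divided by length. In bulk RNA, fewer muscle-like cells and less RNA per cell cannot be told apart. None of the 6 genes tested passed the threshold of 0.05 on the adjusted p from edgeR (quasi-likelihood) in any of the 3 comparisons. Over all 12221 genes tested, edgeR called 1 gene in each mutant against empty vector and 0 between the mutants. All differences below are therefore given as values.

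Ckm had 3.28 and 1.06 CPM in tail mutant libraries 1 and 2, 10.7 and 21.2 CPM in kinase mutant libraries 1 and 2, and 3.08 and 0.976 CPM in empty vector libraries 1 and 2. Both kinase mutant libraries stood above all 4 others, and the tail mutant and empty vector libraries covered nearly the same range. The kinase mutant averaged 16.0 ± 7.46 CPM and empty vector 2.03 ± 1.49 CPM (SD, n = 2 each), a log2 difference of 2.96 ± 0.76 (SE), or 7.77-fold. The adjusted p was 0.314 in edgeR with Benjamini-Hochberg adjustment over 12221 genes, and 0.00437 in DESeq2, where Ckm was called. Leaving out 1 library at a time, the log2 difference ranged from 2.37 to 4.03, without empty vector library 2 and without empty vector library 1. Tail against kinase mutant, the log2 difference was -2.87 ± 0.76 (SE), with adjusted p-values of 0.926 in edgeR and 0.0726 in DESeq2. Counts of Ckm were low in the groups with the lower level, 20 to 83 reads per tail mutant or empty vector library.

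Actc1, the alpha-actin of heart muscle, had 7.48 and 1.88 CPM in the tail mutant libraries, 25.7 and 41.9 CPM in the kinase mutant libraries, and 17.2 and 7.95 CPM in the empty vector libraries. The 3 groups did not overlap: both tail mutant libraries lay under both empty vector libraries, and both kinase mutant libraries lay over them. However, tail mutant library 1 and empty vector library 2 were nearly level, and the share of all genes with this order was not counted. Against empty vector the log2 difference was -1.42 ± 0.69 (SE) in the tail mutant (adjusted p of 0.642 in edgeR) and 1.42 ± 0.67 (SE) in the kinase mutant (adjusted p of 0.510). With 1 library left out at a time, the tail mutant difference ranged from -2.75 without tail mutant library 1 to -0.75 without tail mutant library 2. The kinase mutant difference ranged from 0.97 without empty vector library 2 to 2.09 without empty vector library 1, and none of these passed the test. Set directly against each other, the tail mutant averaged 4.68 ± 3.96 CPM and the kinase mutant 33.8 ± 11.4 CPM (SD, n = 2 each), a log2 difference of -2.85 ± 0.71 (SE). This difference had an adjusted p of 0.926 in edgeR, although by unadjusted p (0.00716) it ranked 27 of 12221 genes. DESeq2 called it, at an adjusted p of 0.0229.

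Acta1, the alpha-actin of skeletal muscle, had 97.9 and 91.7 CPM in the tail mutant libraries, 179.7 and 171.7 CPM in the kinase mutant libraries, and 98.7 and 13.0 CPM in the empty vector libraries. The mutant replicates were close to each other, while the empty vector replicates lay 7.58-fold apart, with library 1 at the level of the tail mutant. The kinase mutant was above empty vector by 1.65 ± 0.81 on the log2 scale (SE; adjusted p of 0.527 in edgeR). Without empty vector library 2 this difference was 0.83, and without empty vector library 1 it was 3.75. For the tail mutant the difference of 0.76 ± 0.80 (SE) became 2.86 without empty vector library 1 and -0.07 without empty vector library 2. Its sign therefore rested on empty vector library 2. The actin genes are alike in parts of their sequence, and reads that fit several genes enter no count in these files. Levels of Acta1 and Actc1 are uncertain to that extent, which was not measured here.

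Des encodes desmin, the intermediate filament that ties neighbouring sarcomeres together. Its level was 20.8 and 33.2 CPM in the tail mutant libraries, 30.3 and 29.7 CPM in the kinase mutant libraries, and 14.2 and 13.7 CPM in the empty vector libraries. All 4 mutant libraries were above both empty vector libraries, and the empty vector replicates differed by a factor of 1.04. The log2 difference from empty vector was 0.96 ± 0.25 (SE) in the tail mutant and 1.11 ± 0.25 (SE) in the kinase mutant. The adjusted p-values were 0.417 and 0.285 in edgeR, and 0.0717 and 0.0151 in DESeq2, which called the second. Leaving out 1 library at a time, the kinase mutant difference stayed between 1.08 and 1.14 and that of the tail mutant between 0.58 and 1.25, the extremes being without tail mutant library 2 and without library 1. Both comparisons used the same empty vector libraries. Between tail and kinase mutant the log2 difference in Des was -0.15 ± 0.24 (SE), within the spread of the tail mutant replicates.

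**Figure D1:**
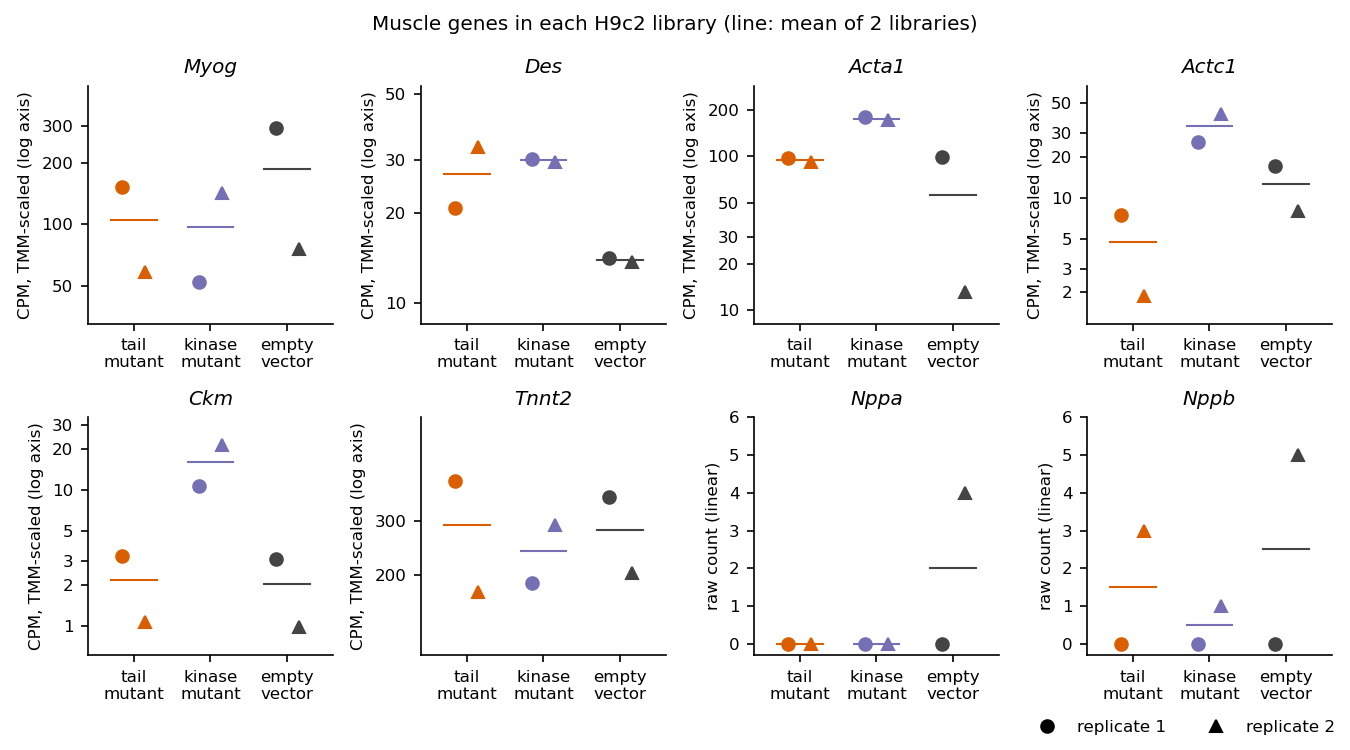
Level of each muscle gene in every library, by group, with replicate 1 as circles, replicate 2 as triangles and a line at the mean of the 2 libraries. The first 6 panels show CPM scaled by TMM on a log axis and the last 2 raw counts on a linear axis. Ckm and Actc1 are highest in both kinase mutant libraries, and Nppa and Nppb stay at or under 5 reads.

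For the regulator and the cardiac troponin the groups overlapped in every comparison. Myog had 151.7 and 58.9 CPM in the tail mutant libraries, 52.8 and 142.5 CPM in the kinase mutant libraries, and 294 and 76.4 CPM in the empty vector libraries. The 3 groups overlapped, and in each of them the higher library exceeded the lower by 2.57-fold to 3.85-fold. Its log2 difference from empty vector was -0.82 ± 0.80 (SE) in the tail mutant and -0.93 ± 0.80 (SE) in the kinase mutant, with adjusted p-values of 0.817 and 0.700 in edgeR. Without empty vector library 1, the highest of all, the same differences were 0.46 and 0.36.

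Tnnt2, which anchors the troponin complex of heart muscle to tropomyosin, had 404 and 176 CPM in the tail mutant libraries, 189 and 290.2 CPM in the kinase mutant libraries, and 358 and 202 CPM in the empty vector libraries. The 3 groups overlapped here as well. The log2 differences from empty vector were 0.05 ± 0.48 (SE) in the tail mutant and -0.23 ± 0.48 (SE) in the kinase mutant, with adjusted p-values of 0.985 and 0.887 in edgeR. These values do not show that the groups are alike.

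The natriuretic peptide genes were at or near the limit of detection. Nppa had 4 reads in empty vector library 2 and 0 reads in each of the 5 other libraries. Nppb had 3 reads in tail mutant library 2, 1 read in kinase mutant library 2, 5 reads in empty vector library 2 and 0 reads in the 3 other libraries. A count of 0 allows up to 3 reads, which corresponds to between 0.111 and 0.149 CPM per library and covers counting error only. The reads that were seen all came from the libraries numbered 2. No fold is given for either gene, and neither entered the tests, so 2 classical heart markers among the 8 were at most barely detected while Tnnt2 and Actc1 were present in every library.

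In the tail mutant against empty vector, 1 of the 6 tested genes (Des) had higher libraries without overlap and 1 (Actc1) had lower ones. Over all 12221 genes, libraries lay higher without overlap in 18.1% and lower in 19.7%. An unadjusted p under 0.05 in edgeR was reached by 1 of the 6 (Des), against 8.56% of all genes. Of the 6, edgeR called 0 and DESeq2 called 0, against 0.00818% (1 gene) and 2.03% of all genes. The median log2 difference of the 6 was 0.07, and that of all genes 0.01. The median size regardless of sign was 0.79 for the 6 and 0.23 for all genes.

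In the kinase mutant against empty vector, 4 of the 6 (Des, Acta1, Actc1 and Ckm) lay higher without overlap and 0 lay lower, against 24.2% higher and 26.4% lower over all genes. An unadjusted p under 0.05 in edgeR was reached by 2 of the 6 (Des and Ckm), against 10.8% of all genes. EdgeR called 0 of the 6 and 0.00818% of all genes (1 gene), and DESeq2 called 2 of the 6 (the same pair) and 2.95% of all genes. The median log2 difference was 1.26 for the 6 and -0.01 for all genes. Regardless of sign, the median size was 1.26 for the 6 and 0.26 for all genes.

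Between tail and kinase mutant, 3 of the 6 (Acta1, Actc1 and Ckm) lay lower in the tail mutant without overlap and 0 lay higher, against 14.8% lower and 15.2% higher over all genes. An unadjusted p under 0.05 in edgeR was reached by 2 of the 6 (Actc1 and Ckm), against 3.67% of all genes. EdgeR called 0 of the 6 and 0% of all genes, where 448 genes had an unadjusted p under 0.05, and DESeq2 called 1 of the 6 (Actc1) and 0.0982% of all genes. The median log2 difference was -0.52 for the 6 and 0.01 for all genes. Regardless of sign, the median size was 0.58 for the 6 and 0.22 for all genes.

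**Figure D2:**
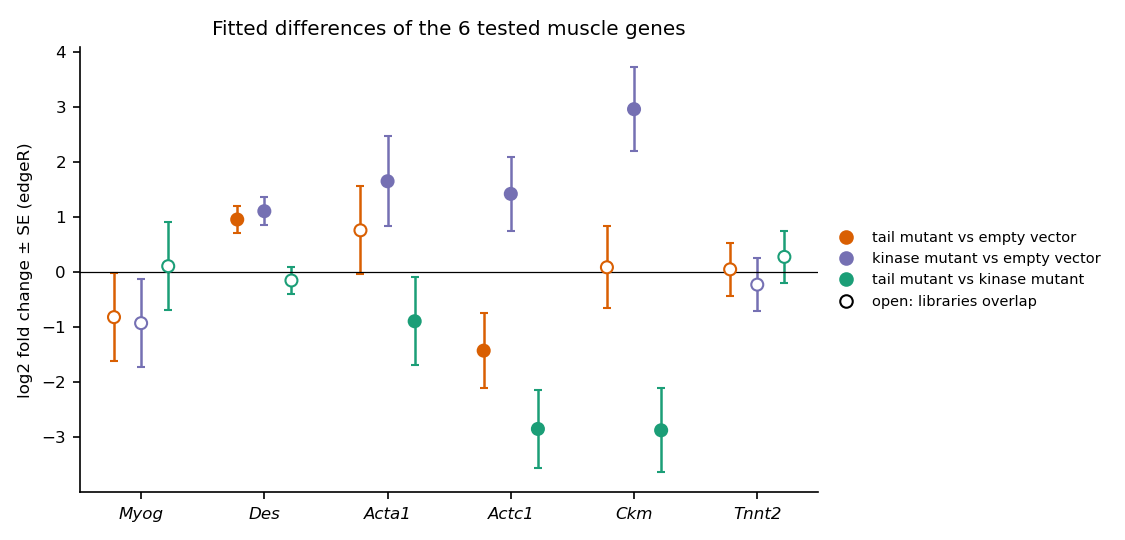
Fitted log2 fold change of the 6 tested muscle genes in the 3 comparisons, with bars of 1 SE from edgeR. Filled points mark genes whose libraries do not overlap between the groups compared. Ckm and Actc1 lie near -2.87 and -2.85 between tail and kinase mutant, and every bar of Tnnt2 crosses 0.

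The muscle genes also differed between replicates of the same label. The median gap between the 2 replicates, on the log2 scale, was 1.28 for the 6 genes in the tail mutant, 0.66 in the kinase mutant and 1.34 in empty vector. Over all tested genes the same medians were 0.36, 0.24 and 0.22. In the tail mutant 4 of the 6 genes lay over 2-fold apart between replicates, in the kinase mutant 1 and in empty vector 4, against 13.9%, 8.68% and 6.58% of all genes. Acta1 in empty vector had the widest gap of the 6, wider than 99.5% of tested genes, whereas its gap was narrower than most in both mutants. Des had narrow gaps in the kinase mutant and in empty vector.

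**Figure D3:**
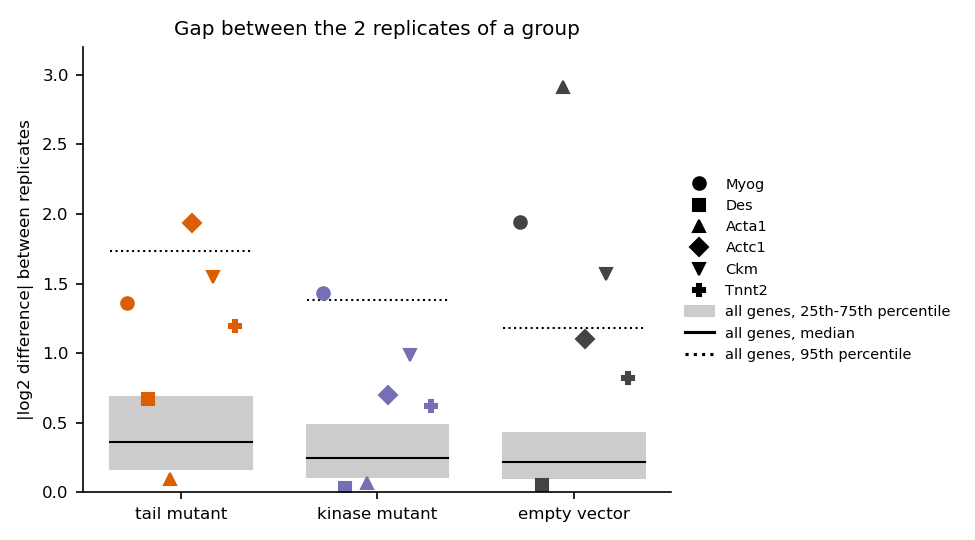
Absolute log2 difference between the 2 replicates of each group, for the 6 tested muscle genes (symbols) and for all tested genes (grey box from the 25th to the 75th percentile, line at the median, dotted line at the 95th percentile). Myog, Actc1, Ckm and Tnnt2 lie above the box in all 3 groups, and Acta1 in empty vector is farthest out at 2.91.

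These gaps had a common direction in 4 of the 6 genes. For Myog, Actc1, Ckm and Tnnt2, library 1 was the higher in the tail mutant and in empty vector, and library 2 in the kinase mutant. That order was shared by 16.1% of all tested genes. Acta1 was higher in library 1 of every group, by a factor of 1.07 or less in the mutants, and Des was higher in library 2 of the tail mutant. Replicate numbers do not order samples, and what set the libraries of a group apart was not tested.

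Myog and Ckm were higher in the same library of each group, and their ratio differed less between the replicates of a group than either gene did. This ratio was chosen after its values were seen, from the 15 pairs of the 6 genes. Of those pairs it had the closest replicates and the widest gap between kinase mutant and empty vector. Neither trait is independent of that choice. The ratio does not depend on how libraries are scaled. Per 1000 reads of Myog there were 21.7 and 18.0 reads of Ckm in the tail mutant libraries, 202 and 149 in the kinase mutant libraries, and 10.5 and 12.8 in the empty vector libraries. Replicates differed by at most 1.36-fold in this ratio, against 2.57- to 3.85-fold in Myog and 1.99- to 3.15-fold in Ckm, and the lower kinase mutant ratio was 11.7-fold the higher empty vector ratio. Among 12220 genes set against Myog in the same way, after adding 0.5 to each count, Ckm ranked 15 by that separation. As the pair was picked after its values were seen, this rank is a description and not a test. Kinase mutant ratios lay above both empty vector ratios in 5.71% of the genes.

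For Actc1 there were 49.3 and 32.0 reads per 1000 reads of Myog in the tail mutant libraries, 487 and 294 in the kinase mutant libraries, and 58.4 and 104 in the empty vector libraries. The groups did not overlap, with the kinase mutant highest and the tail mutant lowest. In 3 of the 15 pairs the ratio was apart in all 3 comparisons: Ckm to Myog, Actc1 to Myog and Tnnt2 to Actc1. Among all pairs of tested genes, each count raised by 0.5, 8.89% were apart in all 3. Between tail mutant and empty vector 8 of the 15 pairs did not overlap, against 39.5% of all pairs. Between kinase mutant and empty vector 10 of the 15 did not, against 49.8% of all pairs, and between tail mutant and kinase mutant 10 of the 15, against 29.9%. The 15 pairs come from 6 genes and are not independent, so these counts are a description. The ratios share their denominators and are given without a test.

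**Figure D4:**
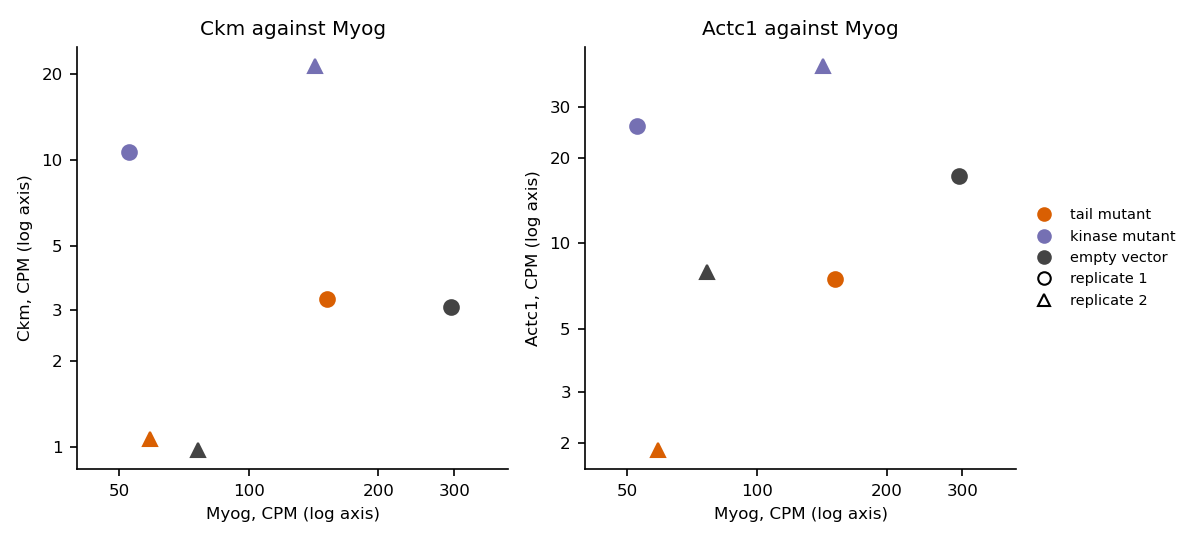
Ckm (left) and Actc1 (right) against Myog in each library, in CPM on log axes, coloured by group, with replicate 1 as circles and replicate 2 as triangles. In the kinase mutant libraries both genes sit above the other libraries at Myog levels of 52.8 and 142.5 CPM, while the 4 other libraries lie between 58.9 and 294 CPM of Myog.

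Among 11263 genes with a mean of at least 1 CPM, those most like Myog across the 6 libraries were ENSRNOG00000017945 (Pearson's r of log2 CPM of 0.995) and ENSRNOG00000020194 (0.987). Those most like Tnnt2 were ENSRNOG00000020821 (0.996) and ENSRNOG00000045943 (0.993). ENSRNOG00000017945 had 4.11 and 2.85 CPM in the tail mutant libraries, 2.74 and 3.90 CPM in the kinase mutant libraries, and 5.41 and 2.98 CPM in the empty vector libraries, a narrower range than that of Myog. These are the highest of many correlations over 6 libraries that share their groups, and the identifiers are not paired with names here.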

How the data were processed

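The authors deposited 1 table of unnormalized read counts by Ensembl identifier per library, made with Trimmomatic 0.33, STAR 2.4.0 and HTSeq 0.6.1p1 on build Rnor_5.0, per the submitters' processing notes. The sources used here give neither the strand setting nor the annotation release, so whether antisense reads were separated is not known. In each file 5 rows name no gene. They took 43.1% to 48.4% of each file's total and entered neither library sizes nor tests.

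Counts were fitted in R 4.3.3 with edgeR 4.0.16: filterByExpr (minimum count of 10, total of 15) kept 12221 of 26404 genes, followed by TMM scaling and a robust quasi-likelihood fit on group alone over all 6 libraries. P-values were adjusted by Benjamini-Hochberg over all genes tested and called below 0.05. For each gene 3 residual degrees of freedom were moderated by a median prior of 3.25. Alternatives were RLE scaling, no filter, DESeq2 1.42.0, limma-voom (limma 3.58.1), only the groups compared, a replicate block and leaving out each library. The fit was tested on simulated data. SD is over 2 libraries, and an SE is the log2 difference divided by the square root of F.

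The members, lists and tests were chosen with earlier results of these data known. All 8 members are named, and for Myog and Tnnt2 the 2 genes of highest correlation. Because the RefSeq table (GRCr8) gives an Ensembl identifier for 0 of 47357 genes, the wider list of muscle genes and the cell type markers were not used here. Upstream sequences were matched by symbol for 8 of 8 members, from RefSeq.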

Additional observations from a re-analysis of the deposited data

Results flagged for a closer look

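Actc1 lay on opposite sides of empty vector in the 2 mutants. Every tail mutant library was lower and every kinase mutant library higher than both empty vector libraries. Over all tested genes, 19.7% lay lower in the tail mutant and 24.2% higher in the kinase mutant, each against empty vector without overlap. The share of genes with both was not counted. For Actc1, tail mutant library 1 and empty vector library 2 were nearly level, at 7.48 and 7.95 CPM. Neither difference from empty vector was called. For the tail and kinase mutants the adjusted p-values were 0.642 and 0.510 in edgeR, and 0.426 and 0.311 in DESeq2. The direct log2 difference between tail and kinase mutant was -2.85 ± 0.71 (SE). Its adjusted p was 0.926 in edgeR (quasi-likelihood, Benjamini-Hochberg), and over the 12 alternatives it ranged from 0.0229, in DESeq2, to 1. The log2 difference was between -4.16 and -2.17 over the same alternatives. Tail mutant library 2, with 39 reads of Actc1, gave the lowest level, and without it the difference was -2.17.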

How the results depend on the processing

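Of the 18 log2 differences (6 genes in 3 comparisons), 9 kept their direction under all 12 alternatives: those of Actc1 in 3 comparisons, of Acta1, Ckm and Des in the kinase mutant against empty vector, of Des in the tail mutant against empty vector, and of Acta1 and Ckm between the mutants. Of 216 values, 15 changed sign, 13 of them on leaving out 1 library, none of them past the threshold, and the cause was not tested. Leaving out each library, the range in the tail mutant against empty vector was -1.66 to 0.46 for Myog, -0.067 to 2.86 for Acta1, -0.95 to 1.16 for Ckm and -0.67 to 0.53 for Tnnt2. In the kinase mutant against empty vector it was -1.81 to 0.36 for Myog and -0.58 to 0.24 for Tnnt2. Between tail and kinase mutant it was -0.73 to 0.995 for Myog, -0.53 to 0.14 for Des and -0.45 to 0.76 for Tnnt2. With limma-voom Tnnt2 in the tail mutant against empty vector was at -0.0066.

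DESeq2 called 0, 2 and 1 of the 6 genes in the 3 comparisons, tail and kinase mutant against empty vector and tail against kinase mutant, where each other alternative called 0. Over all genes, edgeR called 1, 1 and 0. The counts were 248, 361 and 12 with DESeq2, 9, 2 and 0 with no filter, and 0, 0 and 0 with limma-voom or only the groups compared. Leaving out each library they ranged from 0 to 20 (without tail mutant library 1), from 0 to 2 and from 0 to 0. A pairing of the replicate numbers is not stated in the labels, and deviations of same-numbered libraries correlated at -0.35, 0.12 and -0.13. With the replicate block, 2, 2 and 0 genes were called, and Myog between tail and kinase mutant was at -0.20, which changed its sign. Under RLE scaling or unscaled totals, chosen after the data were seen, the same genes lay without overlap.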
